A study of Mus musculus with 6 samples.

Results

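The genes that supply cytosolic acetyl-CoA and build it into fatty acids were followed in MC3T3-E1 cells, a preosteoblast line from mouse calvaria, with and without sulfasalazine. The set was a list of 10 genes: Slc25a1, Acly, Acss2, Acaca, Acacb, Mid1ip1, Fasn, Acsl1, Acsl3 and Gpam. It was taken by gene symbol, and all 10 were among the 14003 genes of the deposited table. RNA was sequenced from 3 control samples, wild type by their label and left untreated, and from 3 wild-type samples given 200 µM sulfasalazine for 24 h. No vehicle is named for either group. Nothing in the labels says that replicates came from separate cultures, and the p-values reflect only how these 6 libraries vary, which may be technical. Sulfasalazine is an anti-inflammatory drug that is also known to block the cystine-glutamate antiporter. Every value comes from a single cell line, a single dose and a single time.

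Fatty acid synthesis takes place in the cytosol and starts from acetyl-CoA. Citrate made in mitochondria is carried out by Slc25a1 and cleaved by Acly into acetyl-CoA and oxaloacetate, while Acss2 makes acetyl-CoA directly from acetate. The carboxylases Acaca and Acacb turn acetyl-CoA into malonyl-CoA, and Mid1ip1 binds them and promotes their assembly into active filaments. Fasn uses malonyl-CoA and NADPH to build palmitate. Acsl1 and Acsl3 activate long-chain fatty acids to acyl-CoA, and Gpam, a glycerol-3-phosphate acyltransferase of the outer mitochondrial membrane, puts an acyl chain on glycerol-3-phosphate. Many of these genes are textbook targets of the sterol regulatory element binding proteins, which act on promoters together with the CCAAT-binding factor NF-Y and with Sp1.

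The promoters of 4 of the genes are shown because they span the range of the set: Fasn, the synthase itself, Slc25a1 and Acss2, which had the largest changes, and Mid1ip1, whose expression was not called different. Each window holds 250 bases before and 50 bases after the RefSeq start on GRCm38.p6, written 5′ to 3′ in the direction of the gene, and capitals mark CCAAT on either strand (read as ATTGG on the other strand). The windows are chr11:120824498-120824797 on the minus strand for Fasn, chr16:17928170-17928469 on the minus strand for Slc25a1, chr2:155517793-155518092 on the plus strand for Acss2 and chrX:10717115-10717414 on the plus strand for Mid1ip1.
Fasn: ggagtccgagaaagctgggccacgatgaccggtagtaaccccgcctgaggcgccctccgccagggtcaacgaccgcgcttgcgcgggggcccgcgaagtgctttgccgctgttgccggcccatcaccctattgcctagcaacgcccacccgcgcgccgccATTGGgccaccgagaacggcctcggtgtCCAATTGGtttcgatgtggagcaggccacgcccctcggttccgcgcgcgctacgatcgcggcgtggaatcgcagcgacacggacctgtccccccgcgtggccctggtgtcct
Slc25a1: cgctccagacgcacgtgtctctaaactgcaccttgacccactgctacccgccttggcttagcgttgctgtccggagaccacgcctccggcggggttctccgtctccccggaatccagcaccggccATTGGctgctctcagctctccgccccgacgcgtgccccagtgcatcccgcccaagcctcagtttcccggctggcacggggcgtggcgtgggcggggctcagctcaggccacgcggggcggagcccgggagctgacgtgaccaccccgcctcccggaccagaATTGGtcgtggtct
Acss2: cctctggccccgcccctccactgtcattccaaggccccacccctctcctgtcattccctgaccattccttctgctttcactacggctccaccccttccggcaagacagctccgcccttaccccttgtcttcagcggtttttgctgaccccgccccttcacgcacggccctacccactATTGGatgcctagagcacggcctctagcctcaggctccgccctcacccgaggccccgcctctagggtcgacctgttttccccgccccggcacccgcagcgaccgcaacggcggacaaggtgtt
Mid1ip1: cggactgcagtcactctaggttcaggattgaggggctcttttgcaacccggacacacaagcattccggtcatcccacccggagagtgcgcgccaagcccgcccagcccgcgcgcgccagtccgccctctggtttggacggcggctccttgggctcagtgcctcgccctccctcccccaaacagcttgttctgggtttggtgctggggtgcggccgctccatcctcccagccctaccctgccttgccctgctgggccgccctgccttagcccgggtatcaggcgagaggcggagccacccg

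RefSeq gave 12 windows for the 10 genes, since Acsl1 and Gpam each had more than 1. CCAAT stood on either strand in 8 of the 12 windows, and those windows belonged to 8 of the 10 genes. Among all 32851 windows 37.4% held it, and among the 10676 windows of genes tested here 38.0% held it. In Fasn the boxes began 90, 62 and 59 bases before the start, and the last pair share bases because one is read on each strand. In Slc25a1 they lay 125 bases before and 37 bases after the start, and in Acss2 the box lay 73 bases before it. The Acaca and Mid1ip1 windows held no CCAAT, although Acaca was higher with sulfasalazine and Mid1ip1 was not called. The RefSeq starts of the Acaca, Acacb and Mid1ip1 windows, of the second windows of Acsl1 and Gpam and, by a short distance, of Acss2 lie inside the annotated span of the gene, so these are not windows of the most upstream start.

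The other motifs were spread over the set differently. The Sp1 box GGGCGG was found on either strand in 7 of the 12 windows, against 65.3% of the windows of tested genes. The core of the sterol regulatory element, TCACNCCAC, was found in 1 window, at the second start of Acsl1, against 1.10% of the windows of tested genes. The E-box CACGTG was in the Slc25a1 window alone among the 12, against 10.3%. The core of the antioxidant response element, TGACNNNGC, was in the Acss2 window alone, 107 bases before the start, against 14.6%. These are matches of letters within 300 bases and were not measured as bound sites.

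Of the 10 genes, 9 passed a filter on low values, 1 FPKM or more in 3 or more of the 6 libraries (FPKM: fragments scaled to gene length and to the library's mapped fragments). With sulfasalazine 7 of these 9 rose (limma on log2(FPKM + 1), adjusted p under 0.05 over 10338 genes), 0 fell and 2 were not called. In bulk RNA a change in the number of cells of a type and a change in RNA per cell cannot be told apart. Over all genes tested, 37.2% rose and 29.3% fell under the same rule, so a call in either direction was common in this comparison. At an unadjusted p under 0.05 the number lower was also 0, as it was with limma voom on recovered reads. The median log2 fold change was 1.55 over the 9 genes and 0.08 over all genes tested. All 3 sulfasalazine values lay above all 3 control values in 7 of the 9 genes tested, a pattern held by 40.3% of all genes tested. Acacb, which did not pass the filter, showed it too, so it was seen in 8 of the 10 genes. The exceptions were Mid1ip1 and Acsl1, whose groups overlapped.

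**Figure D1:**
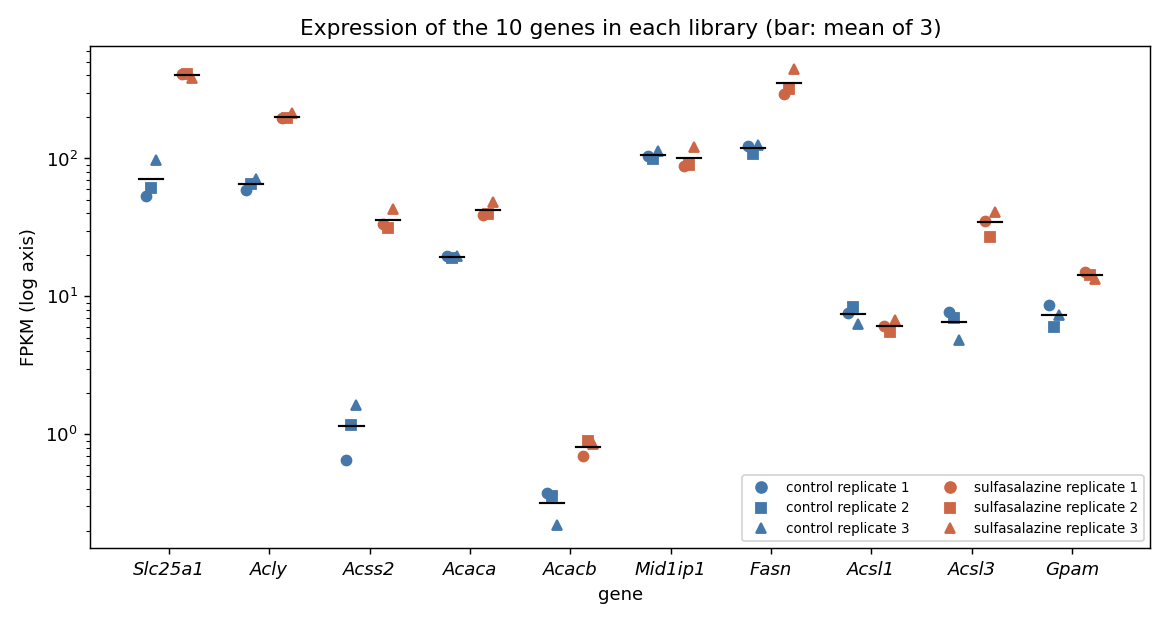
FPKM of each of the 10 genes (log axis) in the 3 control libraries (blue) and the 3 sulfasalazine libraries (orange), with a bar at each group's mean and a marker shape for each replicate number. The sulfasalazine points lie wholly above the control points for 8 genes, and the groups of Mid1ip1 and Acsl1 overlap.

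Slc25a1 (ENSMUSG00000003528, GRCm38 chr16:17925223-17928219, minus strand) encodes the mitochondrial citrate carrier, the exit of citrate to the cytosol. Its level was 53.5, 61.2 and 97.3 FPKM in control replicates 1, 2 and 3, and 412, 407 and 380 FPKM in sulfasalazine replicates 1, 2 and 3. Control replicate 3 was the highest of the controls and sulfasalazine replicate 3 the lowest of its group, and they still lay far apart. The mean rose from 70.6 ± 23.4 to 399.8 ± 17.0 FPKM (SD, n = 3), a log2 fold change of 2.53 (SE 0.20, limma adjusted p = 2.5e-05). Its mean became the highest of the 10 genes per length, although in sulfasalazine replicate 3 Fasn was higher.

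Acly (ENSMUSG00000020917, GRCm38 chr11:100476353-100528000, minus strand) encodes ATP citrate lyase, which cleaves the exported citrate. Control values were 59.1, 64.8 and 70.9 FPKM, and sulfasalazine values were 195, 197 and 212 FPKM. Both groups were tight and did not overlap. The mean rose from 64.9 ± 5.94 to 201 ± 9.26 FPKM (SD, n = 3), with a log2 fold change of 1.62 (SE 0.11, limma adjusted p = 1.1e-05). Slc25a1 and Acly stood at similar levels in the controls, with overlapping values, whereas the ratio of Slc25a1 to Acly was 2.11, 2.07 and 1.79 in the sulfasalazine libraries against 0.906, 0.945 and 1.37 in the controls.

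Acss2 (ENSMUSG00000027605, GRCm38 chr2:155517948-155585724, plus strand) encodes the cytosolic acetyl-CoA synthetase that uses acetate. It was near the filter in control replicates 1, 2 and 3, with 0.651, 1.17 and 1.62 FPKM from 25, 48 and 51 recovered reads. With sulfasalazine it reached 33.6, 31.4 and 43.2 FPKM, or 1427, 1231 and 1637 reads. Every sulfasalazine library was thus well above every control, and the means, 1.15 ± 0.486 and 36.1 ± 6.30 FPKM (SD, n = 3), differed 31.4-fold. The log2 fold change was 4.12 (SE 0.21, limma adjusted p = 5.6e-06), which placed Acss2 at rank 18 among the 3846 genes that rose. Because 1 FPKM was added before the logarithm, 4.12 understates the change of a gene this low in the controls.

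The balance between the acetate and citrate routes, as transcripts per length, shifted with it. Acly exceeded Acss2 by 90.8, 55.2 and 43.7 times in control replicates 1, 2 and 3. In the sulfasalazine libraries the same ratio was 5.82, 6.27 and 4.90. The ratio is given as a description, and Acly remained the more abundant transcript in every library. Of the exonic bases of Acss2, 9.12% also belong to genes on the opposite strand, including Gss and Ggt7, and the sources used here do not say whether strand was used in counting. Gss, glutathione synthetase, had 55.4 ± 4.66 FPKM in the controls and 78.1 ± 4.25 with sulfasalazine (log2 fold change 0.49, SE 0.11), while Ggt7 had 7.54 ± 3.34 and 3.66 ± 1.64. The part of such shared reads in the Acss2 values was not tested.

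Acaca (ENSMUSG00000020532, GRCm38 chr11:84129672-84401651, plus strand) encodes acetyl-CoA carboxylase 1, the cytosolic enzyme that commits acetyl-CoA to fatty acid synthesis. Its control values were almost equal, at 19.6, 19.0 and 19.6 FPKM. They were 38.7, 39.3 and 48.5 FPKM with sulfasalazine, with replicate 3 the highest. The mean rose from 19.4 ± 0.341 to 42.2 ± 5.46 FPKM (SD, n = 3), and the log2 fold change was 1.07 (SE 0.13, limma adjusted p = 0.00017). Of the 50-base words in the exons of Acaca, 30.4% also occur in other genes, mainly the processed pseudogene Gm5182, which was not analysed here. The Acaca values are uncertain to the extent that reads on those words were split or dropped.

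Acacb (ENSMUSG00000042010, GRCm38 chr5:114146535-114250761, plus strand) encodes the carboxylase of the outer mitochondrial membrane, whose malonyl-CoA is known to restrain fatty acid entry into mitochondria. It was the scarcest of the set. The controls held 0.378, 0.355 and 0.219 FPKM and the sulfasalazine libraries 0.701, 0.896 and 0.848. These values rest on 38, 38 and 18 reads and on 78, 92 and 84 reads, and the groups did not overlap. No library reached 1 FPKM, so Acacb was outside the main test. In the limma fit without a filter, an alternative setting in which 30.5% of 14003 genes rose, its log2 fold change was 0.46 (SE 0.07, adjusted p = 0.0017). On recovered reads, where no FPKM is added, limma voom without a filter gave 1.36 (SE 0.31, adjusted p = 0.0046).

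Both carboxylase transcripts were thus higher with sulfasalazine, and their balance was examined within each library. Acacb made up 1.89%, 1.83% and 1.10% of the summed FPKM of the pair in the controls and 1.78%, 2.23% and 1.72% with sulfasalazine. The groups overlapped, with control replicate 3 alone the lowest. The means were 1.61% ± 0.438 and 1.91% ± 0.279 (SD, n = 3), a difference of 0.302 percentage points with an exact two-sided permutation p of 0.6. With 3 libraries against 3 that test cannot give less than 0.1, and a change in the balance was not detectable here. Without control replicate 3 the difference was 0.0492 percentage points.

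Mid1ip1 (ENSMUSG00000008035, GRCm38 chrX:10715013-10719690, plus strand), the partner that promotes carboxylase assembly, did not pass the test. The controls held 104.5, 99.6 and 112 FPKM and the sulfasalazine libraries 88.5, 90.4 and 122 FPKM. Sulfasalazine replicate 3 was the highest of all 6 libraries and the other 2 of its group the lowest. The means were 106 ± 6.44 and 100.3 ± 18.9 FPKM (SD, n = 3), and the log2 fold change of -0.09 had a 95% interval from -0.41 to 0.24 (limma adjusted p = 0.61). An increase as large as that of Acaca lies outside this interval. Mid1ip1 transcripts exceeded those of Acaca 5.33, 5.23 and 5.73 times per length in the controls and 2.28, 2.30 and 2.52 times with sulfasalazine. An antisense gene, Gm14493, shares 25.5% of the exonic bases of Mid1ip1, so its value may hold reads of either gene.

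Fasn (ENSMUSG00000025153, GRCm38 chr11:120805846-120824547, minus strand) encodes the multi-domain synthase that makes palmitate. Control values were 123, 107 and 124 FPKM and sulfasalazine values 296, 319 and 447 FPKM, from 7287 to 8820 reads and from 23301 to 31544 reads. The groups were far apart, and sulfasalazine replicate 3 stood above the other libraries of its group. The mean rose from 118 ± 9.49 to 354 ± 81.6 FPKM (SD, n = 3), with a log2 fold change of 1.55 (SE 0.16, limma adjusted p = 8.9e-05). Fasn alone took 0.0450%, 0.0393% and 0.0456% of the reads on genes in the controls and 0.109%, 0.117% and 0.164% with sulfasalazine. Its ratio to Acaca, the enzyme that provides its malonyl-CoA, was 6.28, 5.64 and 6.34 in the controls and 7.63, 8.11 and 9.22 with sulfasalazine, so the values of the groups did not overlap.

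**Figure D2:**
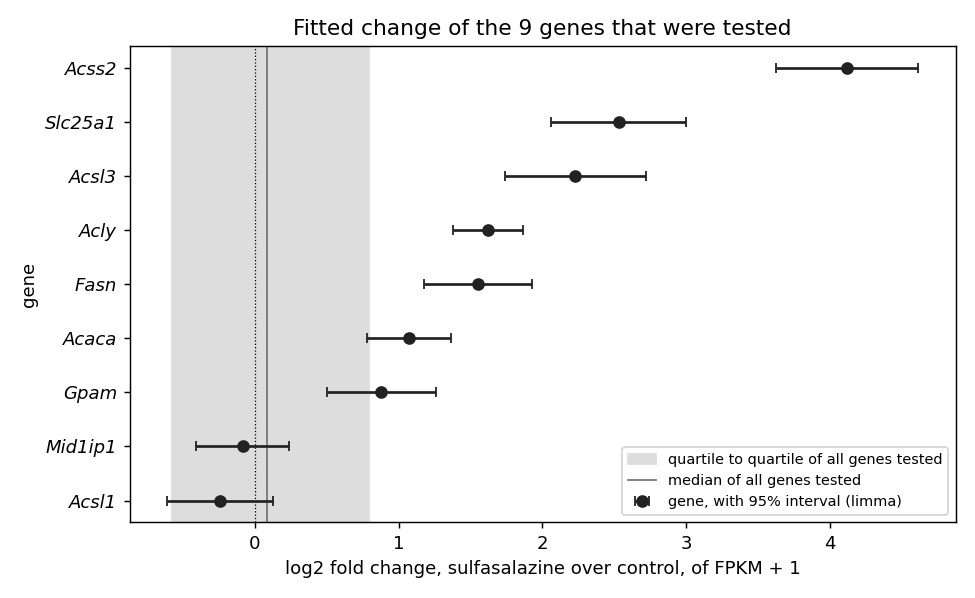
Log2 fold change of FPKM + 1, sulfasalazine over control, of the 9 genes tested (points) with 95% intervals from limma, over the span between the quartiles of all genes tested (grey band) and their median (grey line). The intervals of 7 genes lie above 0, from Gpam at 0.88 to Acss2 at 4.12, while those of Mid1ip1 and Acsl1 span 0.

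The acyl-CoA synthetases went separate ways. Acsl3 (ENSMUSG00000032883, GRCm38 chr1:78657825-78707743, plus strand), an enzyme of the endoplasmic reticulum and lipid droplets, had control values of 7.77, 7.02 and 4.87 FPKM and sulfasalazine values of 35.1, 26.9 and 41.2 FPKM. Its groups did not overlap, and the mean rose from 6.55 ± 1.50 to 34.4 ± 7.18 FPKM (SD, n = 3), with a log2 fold change of 2.23 (SE 0.21, limma adjusted p = 5.6e-05). Acsl1 (ENSMUSG00000018796, GRCm38 chr8:46471037-46536051, plus strand), the long-chain synthetase known best from liver, fat and heart, had control values of 7.55, 8.40 and 6.36 FPKM and sulfasalazine values of 6.13, 5.52 and 6.70 FPKM. Here control replicate 3 lay within the range of the sulfasalazine libraries. The means of Acsl1 were 7.43 ± 1.03 and 6.12 ± 0.592 FPKM (SD, n = 3), and its log2 fold change of -0.24 had a 95% interval from -0.61 to 0.13 (limma adjusted p = 0.21).

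The call on Acsl1 depended on the setting. It was lower at an adjusted p of 0.020 after quantile normalization and at 0.029 when replicate 3 of both groups was left out, and over all 18 alternatives its limma adjusted p ranged from 0.020 to 0.47. The Acsl3 call held in all 18. Per length, Acsl3 and Acsl1 were close in the controls, with ratios of 1.03, 0.835 and 0.766. With sulfasalazine Acsl3 was 5.72, 4.88 and 6.15 times as abundant as Acsl1. Other genes share 5.60% of the exonic bases of Acsl3 (Utp14b, 1.18 ± 0.180 and 1.33 ± 0.460 FPKM) and 9.91% of those of Acsl1 (Gm45244, opposite strand).

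Gpam (ENSMUSG00000024978, GRCm38 chr19:55067268-55127238, minus strand), which starts glycerolipid synthesis from the acyl-CoA pool, showed the smallest of the called increases. The control values were 8.70, 6.02 and 7.32 FPKM and the sulfasalazine values 15.0, 14.3 and 13.4 FPKM. The groups did not overlap, and the sulfasalazine libraries lay close together. The mean rose from 7.35 ± 1.34 to 14.2 ± 0.836 FPKM (SD, n = 3), and the log2 fold change was 0.88 (SE 0.16, limma adjusted p = 0.0018).

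The order of levels per length changed between the groups. In the controls it ran Fasn, Mid1ip1, Slc25a1, Acly, Acaca, Acsl1, Gpam, Acsl3, Acss2 and Acacb. Neighbours with overlapping values were Fasn and Mid1ip1, Slc25a1 and Acly, Acsl1 and Gpam, and Gpam and Acsl3. With sulfasalazine the order was Slc25a1, Fasn, Acly, Mid1ip1, Acaca, Acss2, Acsl3, Gpam, Acsl1 and Acacb. Here Slc25a1 overlapped with Fasn, Acaca with Acss2, and Acss2 with Acsl3. The 10 genes together took 0.0876%, 0.0825% and 0.0948% of the reads on genes in the controls and 0.234%, 0.242% and 0.3001% with sulfasalazine.

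Libraries within a group differed in a gene-dependent way. Sulfasalazine replicate 3 was the highest of its group for 7 of the 10 genes and the lowest for Slc25a1 and Gpam. Control replicate 3 was the highest of the controls for 6 genes and the lowest for Acacb, Acsl1 and Acsl3. On the first principal component of all genes, which held 88.6% of the variance, control replicate 3 lay at -42.6 and the other controls at -65.3 and -63.2, with the sulfasalazine libraries between 54.1 and 59.2. It was also the shallowest, with 15980943 recovered reads on genes against 19247898 to 21579133 in the other 5 libraries. Leaving out any single library, or replicate 3 of both groups, kept 7 genes of the set higher.

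**Figure D3:**
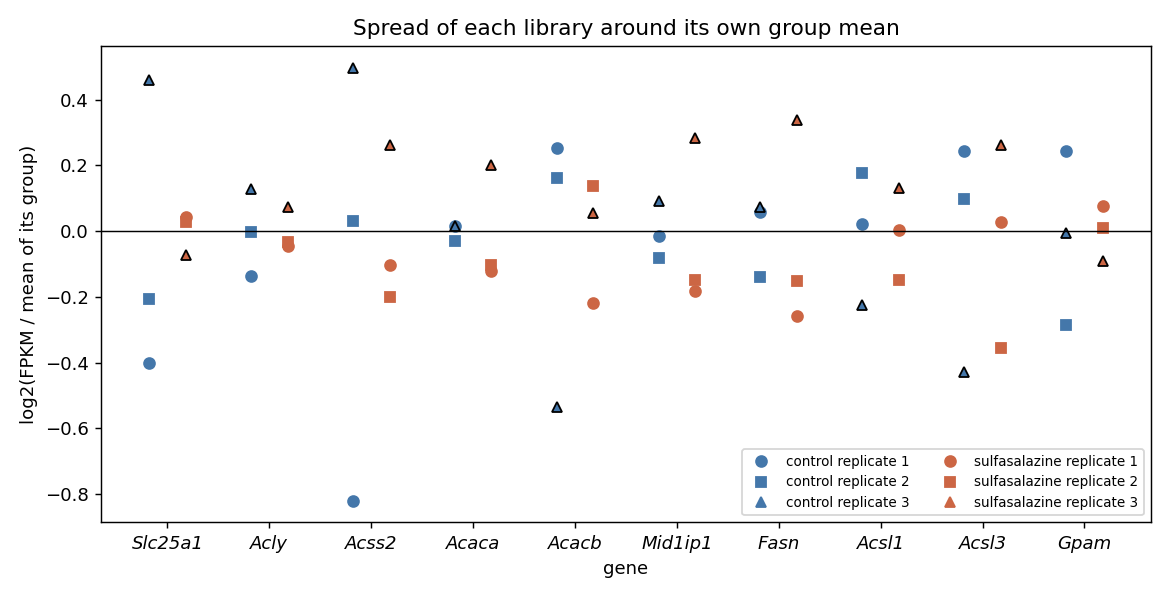
Distance of each library from the mean of its own group, as log2(FPKM / group mean), for the 10 genes, with replicate 3 of each group outlined in black. Control replicate 1 of Acss2 lies lowest at -0.82, and sulfasalazine replicate 3 lies above 0 for 8 genes and below 0 for Slc25a1 and Gpam.

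The scale of the values was checked because many genes moved. Under median-of-ratios scaling the median log2 fold change of all genes shifted by -0.118, and under quantile normalization by -0.106, from 0.08. Over all genes 3422 were then higher and 3533 lower under the first and 3507 and 3549 under the second, against 3846 and 3032 as deposited, so the excess of rises over falls did not hold under either. The 7 increases kept their direction and their calls under both. Under median-of-ratios scaling they ran from 0.76 for Gpam and 0.95 for Acaca to 2.40 for Slc25a1 and 4.02 for Acss2, and Fasn and Acly stood at 1.43 and 1.50. Mid1ip1 and Acsl1 stood at -0.21 and -0.35. The authors' deposited table has 8 of the 10 genes higher at an adjusted p under 0.05, against 28.2% of all 14003 genes, and labels 7 of them as up. That table gave log2 fold changes of 4.88 for Acss2, 1.48 for Fasn, 1.25 for Acacb (adjusted p = 0.000545) and 0.86 for Gpam, which the authors' deposited table does not label as changed.

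The steps around the set were followed with 7 further lists. Their counts are to be read against the 37.2% of all tested genes that rose and the 29.3% that fell. These lists, like the set, were chosen with earlier results of these data known, so the comparison is a description. In the list for citrate, acetyl-CoA and NADPH supply, 10 of 14 tested genes rose and 1 fell, with a median log2 fold change of 0.97. The NADPH-producing enzymes Pgd, G6pdx and Idh1 had the largest changes: Pgd rose from 43.0 ± 3.07 to 1206 ± 122 FPKM, G6pdx from 18.7 ± 3.19 to 241 ± 34.4 and Idh1 from 5.68 ± 1.53 to 67.8 ± 11.5 (SD, n = 3), with log2 fold changes of 4.78, 3.62 and 3.38. Citrate synthase, Cs, rose by 0.93 on the log2 scale. Of the mitochondrial pyruvate dehydrogenase genes, Pdhb fell by 0.41, and Pdha1 and Dlat, at -0.19 and 0.05, were not called.

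In the list of desaturases and elongases, 11 of 15 tested genes rose and 1 fell, with a median of 1.49. Scd4, among the 11, averaged 0.05 FPKM in the controls and 1.54 with sulfasalazine. It passed the filter only through the sulfasalazine libraries, so its direction was fixed by the filter. Scd2, a stearoyl-CoA desaturase, rose from 29.0 ± 9.22 to 1645 ± 213 FPKM, and Fads2 and the elongation enzyme Tecr had log2 fold changes of 4.12 and 2.78. Among the other acyl-CoA synthetases, thioesterases and transporters, beside Acsl1 and Acsl3, 7 of 14 rose and 4 fell (median 0.38). The shares over all genes were 37.2% and 29.3%, and the difference from them was not tested. The acyl-CoA binding protein Dbi, the synthetase Acsf2 and the transporter Slc27a4 rose by 2.44, 2.25 and 2.04, while Acsl4, at -0.60, was not called. The 4 that fell were Acot9, Acot2, Acsbg1 and Acbd3, by 1.71, 1.54, 1.11 and 0.57. Of the other glycerolipid genes, beside Gpam, 11 of 19 rose and 3 fell (median 0.65). Lpin3, among the 11, averaged 0.33 and 1.26 FPKM and likewise passed the filter only through the sulfasalazine libraries. There Gpat4 rose by 0.65, Gpat3 fell by 1.85, and choline kinase Chka fell from 844 ± 275 to 118 ± 10.2 FPKM. The remodelling acyltransferases Lpcat3 and Lpcat1 rose by 2.10 and 2.00 on the log2 scale.

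**Figure D4:**
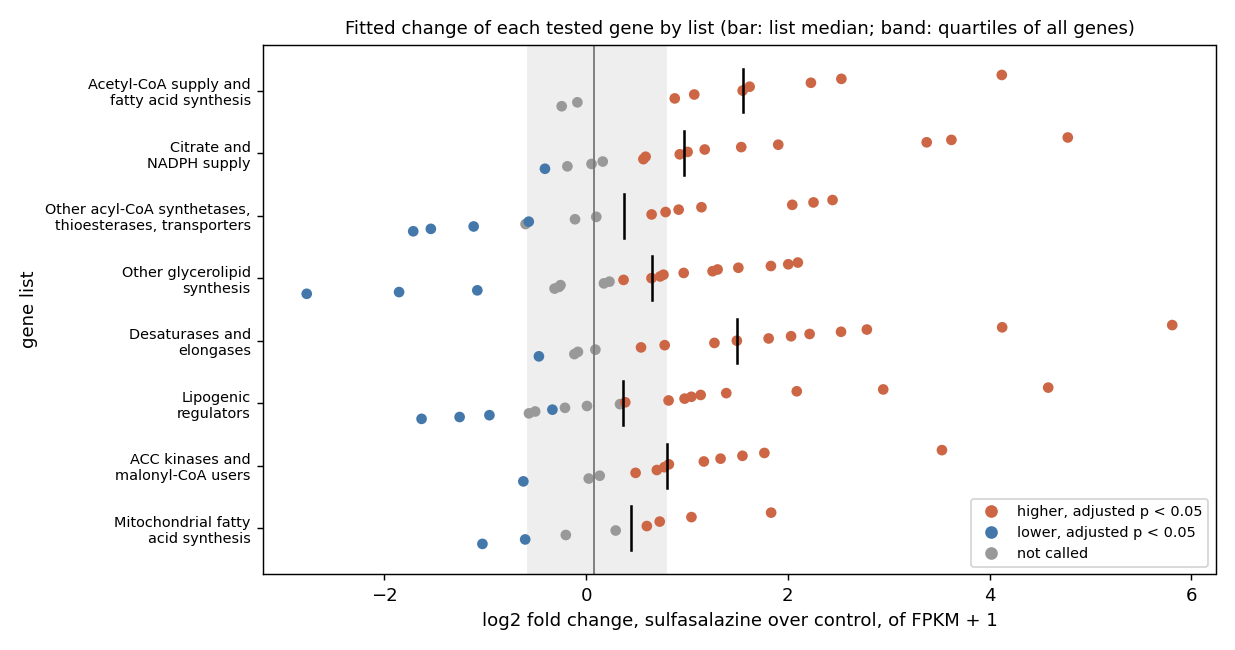
Log2 fold change of FPKM + 1, sulfasalazine over control, of each tested gene in the set and in the 7 further lists (points; orange higher, blue lower, grey not called), with each list's median (black bar) and the span between the quartiles of all genes tested (grey band). The set's median is 1.55, and among the further lists the medians run from 0.36 for the lipogenic regulators to 1.49 for the desaturases and elongases.

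Of the transcription regulators of lipogenesis, 9 of 18 tested rose and 4 fell (median 0.36). The shares over all genes were 37.2% and 29.3%, and the difference from them was not tested. Insig1, which retains the sterol sensor complex in the endoplasmic reticulum, rose by 4.58 on the log2 scale. Srebf1 rose from 30.1 ± 5.60 to 237 ± 18.3 FPKM, and Nr1h2, which encodes liver X receptor beta, rose by 2.09. Srebf2, Mbtps1 and Scap rose by 1.14, 1.04 and 0.98. In the same list Nr1h3 fell by 1.25 and Usf2 by 0.33, while Usf1 rose by 0.82. Among those not called were Insig2 at 0.34, Mbtps2 at -0.50 and Sp1 at -0.57. The NF-Y subunits, named after their values were seen because the factor binds CCAAT, moved apart. Nfya rose from 17.3 ± 1.98 to 46.8 ± 4.06 FPKM, whereas Nfyb fell from 46.7 ± 11.6 to 14.2 ± 2.17 and Nfyc from 48.0 ± 7.06 to 24.1 ± 1.59 (SD, n = 3, limma adjusted p = 5.4e-05, 0.00018 and 0.00044).

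Among genes that regulate the carboxylases or respond to malonyl-CoA, 9 of 12 rose and 1 fell, with a median of 0.80, beside 37.2% and 29.3% of all genes tested. Cpt1a, the malonyl-CoA-sensitive gate of mitochondrial fatty acid oxidation, rose from 17.4 ± 6.19 to 203 ± 7.19 FPKM (SD, n = 3), and its log2 fold change was 3.53 (SE 0.22, limma adjusted p = 1.0e-05). The carnitine carrier Slc25a20 and Strada, a partner of the kinase Stk11, rose by 1.55 and 1.77. Stk11 itself, at 0.14, was not called, and Cab39 was the gene that fell, by 0.62. Of the subunits of the kinase that phosphorylates Acaca and Acacb, Prkag2, Prkab1, Prkag1 and Prkab2 rose by 1.17, 0.82, 0.78 and 0.70, and the catalytic subunit Prkaa1 stood at 0.03. In mitochondrial fatty acid synthesis, a separate pathway that does not use Fasn, 4 of 8 rose and 2 fell (median 0.45). The shares over all genes were 37.2% and 29.3%, and the difference from them was not tested. Lipt2, among the 4, averaged 0.65 FPKM in the controls, below the filter, and 4.87 with sulfasalazine. Mcat rose by 1.04, and Lias and Mecr fell by 1.03 and 0.60.

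By a measure of likeness over the 6 libraries, the genes nearest to the mean profile of the 9 tested genes were Nsun4, Ctif, Ezh1, Sgtb and Dennd11. Their root mean square distances were 0.0476, 0.0520, 0.0521, 0.0528 and 0.0571 on the log2 scale, among 8877 candidate genes. Within the set, Acly at 0.0855 and Fasn at 0.125 lay nearest to that mean and Acss2 at 1.31 farthest. Acss2 rose more than the mean profile, while Mid1ip1 at 0.807 and Acsl1 at 0.891 lay below it.

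Markers of cell types were read from the same libraries. Their calls are to be read against the 37.2% of all tested genes that rose and the 29.3% that fell. Of 12 osteoblast markers 3 were tested and 2 fell, and their summed level, mostly Spp1, was 1549 to 2142 FPKM in the controls and 889 to 1110 with sulfasalazine. Runx2 was present at 20.9 to 24.9 FPKM in the controls and 16.8 to 19.8 with sulfasalazine. Sparc, at 22.4 ± 18.4 and 23.1 ± 7.44 FPKM (SD, n = 3), was not called. Sp7 was at 0 in 5 of 6 libraries, and Bglap, Phex and Col1a1 were below 1 FPKM in all. Col1a2, Alpl, Ibsp, Dlx5 and Dmp1 were not among the deposited genes. Few of the listed osteoblast markers beyond Runx2, Spp1 and Sparc were thus seen. Of 11 adipocyte markers 4 were tested, 1 rose (Lipe) and 2 fell (Cebpa and Plin4), with sums of 15.1 to 18.4 and 23.3 to 26.8 FPKM. Both that fell lay near the filter of 1 FPKM. Cebpa averaged 2.47 in the controls and 1.04 with sulfasalazine, and Plin4 1.82 and 0.626. Pparg, at 8.54 ± 0.862 and 9.89 ± 0.292 FPKM (SD, n = 3), was not called. Adipoq, Fabp4 and Cidec were below 0.1 FPKM throughout. The hepatocyte marker in the table, Apoa1, stood at 0.190 and 0.231 FPKM. Of 8 epithelial markers 4 were tested, 2 rose and 1 fell, with sums of 1293 to 1452 and 1884 to 2093 FPKM. Krt8 rose from 287 ± 33.4 to 902 ± 58.1 FPKM and Krt18 from 708 ± 61.1 to 913 ± 61.4, while Krt19 fell from 349.5 ± 43.2 to 154 ± 42.9 (SD, n = 3). Cdh1, at 6.42 ± 1.11 and 7.55 ± 2.10 FPKM, was not called. Krt5 and Krt14 were below 1 FPKM in all libraries, and Epcam and Cldn4 were not among the deposited genes. Of 5 macrophage markers only Cd68 was tested, and it fell from 42.6 ± 12.5 to 22.0 ± 5.70 FPKM (log2 fold change -0.91, limma adjusted p = 0.011), with Csf1r and Lyz2 below 1 FPKM throughout. The part of these marker genes in the values of the set was not tested.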

How the data were processed

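RNA of 3 control and 3 sulfasalazine libraries was sequenced as paired-end reads, and all 6 carry the same batch label. The RNA kit named in the labels is sold for plant tissue and the rRNA depletion kit for bacteria. The submitters' processing notes name the build mm39 and the tools edgeR, HTSeq 0.13.5, HISAT2 2.2.1 and fastp 0.23.0, with roles not given in the sources used here. FPKM per gene and library was deposited by the authors, per the file headers. Beside it, the authors give a signal per library adjusted for library size. They also deposited a log2 fold change, a p-value and an adjusted p per gene. Coordinates of the deposited table equalled those of GENCODE M21 for 13836 of 14003 genes, all 10 of the set included, and are given as GRCm38. All mapped columns were usable, and 0 were set aside.

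The 10338 genes with 1 FPKM or more in 3 or more libraries were compared as log2(FPKM + 1) with limma 3.58.1 in R 4.3.3 (lmFit, eBayes with an intensity trend, two-sided, Benjamini-Hochberg over all genes tested, threshold 0.05). The fit was tested on simulated data. Whole reads were recovered from the steps of the FPKM values (within 0.00001 reads for 100.0% of values above 0) and used for depth and for limma voom. The steps give the proportions between libraries, and the authors' adjusted signal was used to choose the multiple for each gene. For 654 genes more than 1 set of reads was possible. The Acacb share was compared with an exact permutation test. Same-numbered libraries did not deviate together (correlations 0.0363, -0.194 and -0.174), so no pairing was used.

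All 10 genes are named. From each further list up to 3 called genes with the largest change and at least 5 FPKM in the higher group are named in the first place, and others of a list are named for their role after their values were seen. The members and lists were chosen with earlier results of these data known. Alternatives were the pseudocount, the filter, the scaling, the trend, a replicate block, the threshold, a minimum change, voom, and leaving out libraries. Leaving out replicate 3 of both groups, and voom without a filter, were added after seeing the data. Promoter windows came from RefSeq (GRCm38.p6) and matched all 10 genes by symbol.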

Additional observations from a re-analysis of the deposited data

How the results depend on the processing

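Between 6 and 8 of the 10 genes were higher in every alternative tried. Without a filter Acacb joined them (8), and requiring an absolute log2 fold change of 1 removed Gpam (6). Leaving out each library in turn gave 7 each time. The count of genes lower was 0 except under quantile normalization (1) and with replicate 3 of both groups left out (1), and the gene was Acsl1 in both. The cause was not tested. Over the 7 further lists 61 genes were higher and 16 lower, against 39 and 9 where an absolute log2 fold change of 1 was required, which by construction removes small changes. With a filter of 5 FPKM 56 were higher and 14 lower. With a replicate block 7 genes of the set were higher, and over all genes 3649 were higher and 2771 lower, against 3846 and 3032 without it. No library correlated best with the library of its own number. The Acacb share difference ran from 0.0492 to 0.443 percentage points when 1 library was left out and was 0.424 on the authors' adjusted signal. Low read numbers limit Acacb in all libraries and Acss2 in the controls.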
